A study of Mus musculus with 22 samples.

Results

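The genes described here are the 9 mitochondrially encoded respiratory chain genes mt-Nd1, mt-Nd2, mt-Nd4, mt-Nd5, mt-Cytb, mt-Co1, mt-Co2, mt-Co3 and mt-Atp6, taken by symbol from the 52526 distinct gene symbols that were listed for every mouse. RNA was measured in a left mammary tissue of 22 female C57BL/6J mice aged 7 to 8 weeks. In every mouse that tissue had received 100000 EO771 cells, a mouse mammary cancer line that here carried firefly luciferase, and it was taken 24 hours later. For 2 weeks before engraftment the cages held a running wheel (wheel mice) or just its hub shelter (control mice), and all animals received liposomes 24 hours before engraftment and again with the cells. The liposomes held either PBS or clodronate, a drug that kills phagocytes which take it up. PBS liposomes went to 6 control and 6 wheel mice, clodronate liposomes to 5 control and 5 wheel mice. No mouse without engrafted cells, and none without liposomes, was part of these groups, and RNA of the engrafted cells cannot be told apart from that of the host tissue.

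Mitochondria keep a small circular genome of their own, which encodes core subunits of the respiratory chain, along with the 2 ribosomal RNAs of the mitochondrial ribosome. Its genes are transcribed as long precursors that are cut into single RNAs, most of which then receive a short poly(A) tail. The chain moves electrons from food to oxygen and uses the energy to make ATP, so it is busiest in cells that burn fuel, such as muscle and brown fat, while white fat of the mammary pad holds fewer mitochondria. In bulk tissue, fewer cells of a type and less RNA per cell cannot be told apart.

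Each library held between 13256467 and 20484578 reads, of which 57.2% to 64.5% were assigned to genes and 16.6% to 19.9% were set aside because they mapped to more than 1 place. The assigned part was 57.2% to 58.5% in wheel mice with clodronate and 58.3% to 63.7% in wheel mice with PBS. In control mice it was 58.7% to 63.0% with clodronate and 60.4% to 64.5% with PBS. Values are CPM, the reads of a gene scaled to the same total in each library, with every value below 1 raised to 1, so that a gene listed at 1 had at most 13 to 20 reads. Adipoq, which marks fat cells, lay between 865 and 2656 CPM and Epcam, which marks epithelium, between 34.4 and 111 CPM in all mice. Ucp1, the defining gene of brown fat, was at most 8.16 CPM. Markers of skeletal muscle, all 10 of which were above the floor in at least 1 mouse of every group, had a summed level of 24.4 to 27323 CPM, and markers of lymphocytes 0 to 797 CPM (values at the floor counted as 0). The mean log2(CPM + 1) of the lymphocyte markers was above 2 in 5 mice, 3 of them wheel mice with clodronate liposomes. Adgre1, which marks macrophages, was 2.27 to 20.1 CPM and overlapped between all groups, and of 10 macrophage markers 10 were lower on average with clodronate in control mice and 8 in wheel mice, against 65.4% and 49.9% of all genes, with none past an adjusted p of 0.05 in limma.

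Of the 9 genes, 6 were measured and 3 were not. mt-Nd1, mt-Nd2, mt-Nd4, mt-Nd5, mt-Cytb and mt-Co1 were above the floor in all 22 mice. mt-Co2, mt-Co3 and mt-Atp6 were listed at the floor in all 22 mice, as were the neighbouring mt-Nd4l and mt-Atp8. The libraries were made with QuantSeq, a method that reads the 3′ ends of polyadenylated RNA, so the last bases of each gene are shown here to let a reader see which of them could be read as this gene alone. The sequences are the last 80 bases of each transcript in GENCODE M21 (GRCm38), on the plus strand of the mitochondrial chromosome. Lower case marks bases that are the same in the closest annotated nuclear copy, and capitals mark bases that differ there or lie beyond its end.
mt-Nd1: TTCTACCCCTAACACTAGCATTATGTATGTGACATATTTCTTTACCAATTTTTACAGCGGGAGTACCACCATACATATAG
mt-Nd2: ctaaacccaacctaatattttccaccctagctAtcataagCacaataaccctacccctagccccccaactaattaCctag
mt-Nd4: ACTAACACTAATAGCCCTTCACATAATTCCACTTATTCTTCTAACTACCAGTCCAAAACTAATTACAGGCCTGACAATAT
mt-Nd5: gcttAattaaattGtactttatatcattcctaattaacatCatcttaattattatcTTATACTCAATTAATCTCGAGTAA
mt-Cytb: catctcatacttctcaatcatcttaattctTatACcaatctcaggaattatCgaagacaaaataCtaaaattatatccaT
mt-Co1: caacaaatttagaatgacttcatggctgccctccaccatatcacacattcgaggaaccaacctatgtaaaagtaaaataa
mt-Co2: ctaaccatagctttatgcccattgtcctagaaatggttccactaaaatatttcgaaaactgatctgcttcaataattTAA
mt-Co3: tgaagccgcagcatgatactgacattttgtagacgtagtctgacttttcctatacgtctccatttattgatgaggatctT
mt-Atp6: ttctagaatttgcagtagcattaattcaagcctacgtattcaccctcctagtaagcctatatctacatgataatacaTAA

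All 80 bases of mt-Nd1 (chrM:2751-3707 in full) and of mt-Nd4 (chrM:10167-11544) were without a copy among the other annotated transcripts. The last 80 bases of mt-Co1 (chrM:5328-6872) were the same in Gm29216, and those of mt-Co2 (chrM:7013-7696), mt-Co3 (chrM:8607-9390) and mt-Atp6 (chrM:7927-8607) were matched by Gm28661, Gm28437 and Gm10925 up to their last 1 to 3 bases. These 4 copies are unprocessed pseudogenes that lie next to each other on the minus strand of chromosome 1, between 24613189 and 24616197. Over their whole aligned length, Gm28661 was 100% identical to mt-Co2 (681 of 684 bases), Gm28437 to mt-Co3 (783 of 784 bases) and Gm10925 to mt-Atp6 (678 of 681 bases). Gm29216 covered the last 483 bases of mt-Co1 with the single substitution A1066T, where positions count from the first base of mt-Co1 and the gene's base comes first, and this position lies 479 bases from the end. mt-Co1 also had a copy over its full 1545 bases on chromosome 2, Gm13340, with an identity of 97.6%.

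The remaining genes had weaker copies or copies elsewhere in the gene. The first 876 bases of mt-Nd4 were 100% identical to Gm28439 on chromosome 1, but none of its last 300 bases was. mt-Nd2 (chrM:3914-4951) matched Gm13339 on chromosome 2 at 96.7% over its last 510 bases, and mt-Cytb (chrM:14145-15288) matched Gm11410 at 92.9%. mt-Nd5 (chrM:11742-13565) matched Gm4076 at 95.2%, but just over bases 706 to 1659 of its 1824. The lower-case bases of mt-Nd5 above are those of Gm11407, which matched bases 748 to 1800 at 92.4%. Counted in windows of 50 bases within the last 300 bases, the share that also occurs exactly in another annotated transcript was 0% for mt-Nd1, mt-Nd4 and mt-Cytb, 1.99% for mt-Nd5 and 31.9% for mt-Nd2. That share was 98.8% for mt-Atp6, 99.6% for mt-Co3 and 100% for mt-Co2, which are the 3 genes at the floor. It was 100% for mt-Co1 as well, yet mt-Co1 had a median of 939 CPM, and it was 0% for mt-Atp8, which was at the floor. Over the whole gene, the share was 51.1% for mt-Co1 and 62.2% for mt-Nd4. For mt-Co2, mt-Co3 and mt-Atp6 it was 100%, 99.9% and 99.5%, so mt-Co1 had many windows of its own farther from the 3′ end and these 3 had almost none. Whether this accounts for their levels was not tested. mt-Atp8 (chrM:7766-7969) ends within mt-Atp6. Copies outside annotated transcripts were not looked for, so this 0% does not show that mt-Atp8 has no copy. The copies themselves were low, since Gm28661, Gm28437 and Gm10925 reached at most 1.77, 2.16 and 2.51 CPM. Whether reads of the 3 genes were among those set aside as mapping to more than 1 place was not tested, and a listed value of 1 says nothing about how much of their RNA the tissue held.

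**Figure D1:**
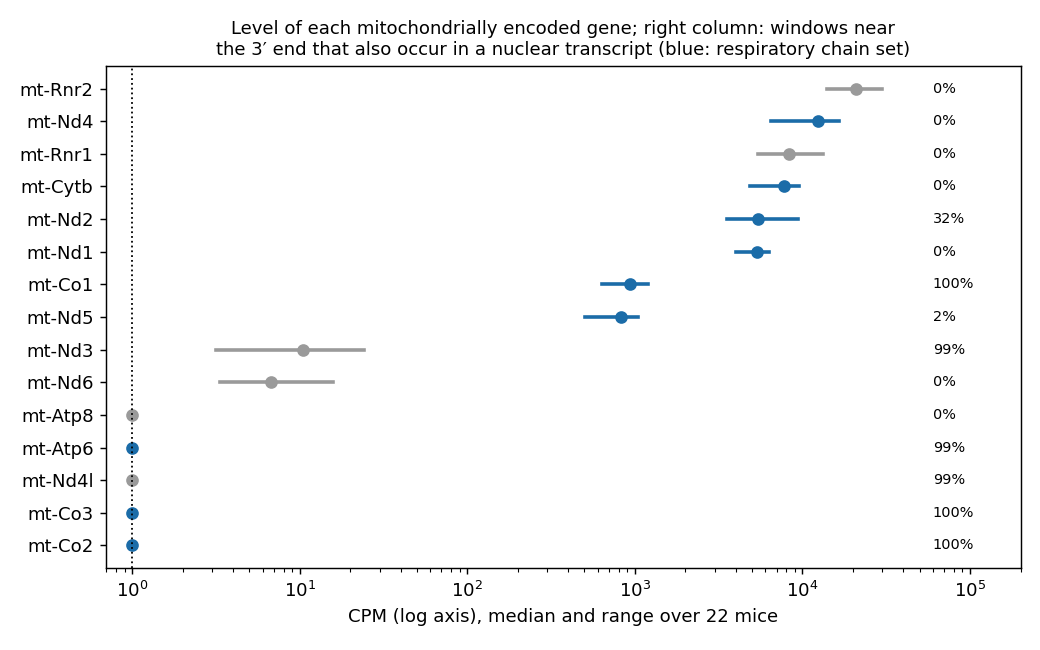
Levels of 15 mitochondrially encoded genes in CPM on a log axis, with the median as a point and the range over 22 mice as a line, blue for the respiratory chain genes described here and grey for others. The right column gives the percent of 50-base windows near the 3′ end that also occur in another annotated transcript, and the dotted line is the floor of 1 CPM, where mt-Co2, mt-Co3 and mt-Atp6 sit.

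The measured genes were among the most abundant RNAs of the tissue. mt-Nd4, mt-Cytb, mt-Nd2 and mt-Nd1 were all in the 10 genes with the highest mean CPM, together with both mitochondrial ribosomal RNAs and the fat genes Car3, Cfd and Fabp4. The first place went to Gm42418, a row that overlaps ribosomal RNA, with a mean of 78248 CPM. Over the 22 mice the median was 12311 CPM for mt-Nd4, a membrane subunit of complex I (the NADH dehydrogenase that feeds electrons into the chain). For the other complex I subunits it was 5392 CPM for mt-Nd2, 5382 CPM for mt-Nd1 and 828 CPM for mt-Nd5. mt-Cytb, the cytochrome b of complex III, had 7710 CPM, and mt-Co1, the catalytic subunit of complex IV that hands electrons to oxygen, had 939 CPM. The libraries read 3′ ends, so the genes are ordered by CPM and not by CPM per kilobase. Genes next to each other in this order had overlapping ranges over mice, except mt-Nd1 and mt-Co1. The order can be read only with the share of copies in mind, since reads that also fit a copy may be missing from mt-Co1 and, to a lesser degree, from mt-Nd2.

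Together the 6 measured genes took 3.47% to 6.85% of the reads assigned to genes. In control mice with PBS liposomes the share was lowest at 5.18%, had a median of 5.99% and was highest at 6.20%. In wheel mice with PBS liposomes it ran from 4.66% through a median of 5.67% to 6.34%. The shares of the 2 groups overlapped over most of their range. In the 5 control mice with clodronate liposomes the shares were 6.85%, 4.59%, 3.47%, 4.34% and 5.61%, and in the 5 wheel mice with clodronate liposomes 6.23%, 4.87%, 4.27%, 4.96% and 4.73%. The clodronate control mice held both the highest and the lowest share of all 22 mice. The means were 5.82% ± 0.41 (SD, n = 6), 5.61% ± 0.63 (SD, n = 6), 4.97% ± 1.30 (SD, n = 5) and 5.01% ± 0.73 (SD, n = 5) in the same order of groups, given as a description. mt-Nd4 made up 32.0% to 43.1% of the 6 genes in single mice, mt-Cytb 18.4% to 26.2% and mt-Co1 2.33% to 3.79%.

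**Figure D2:**
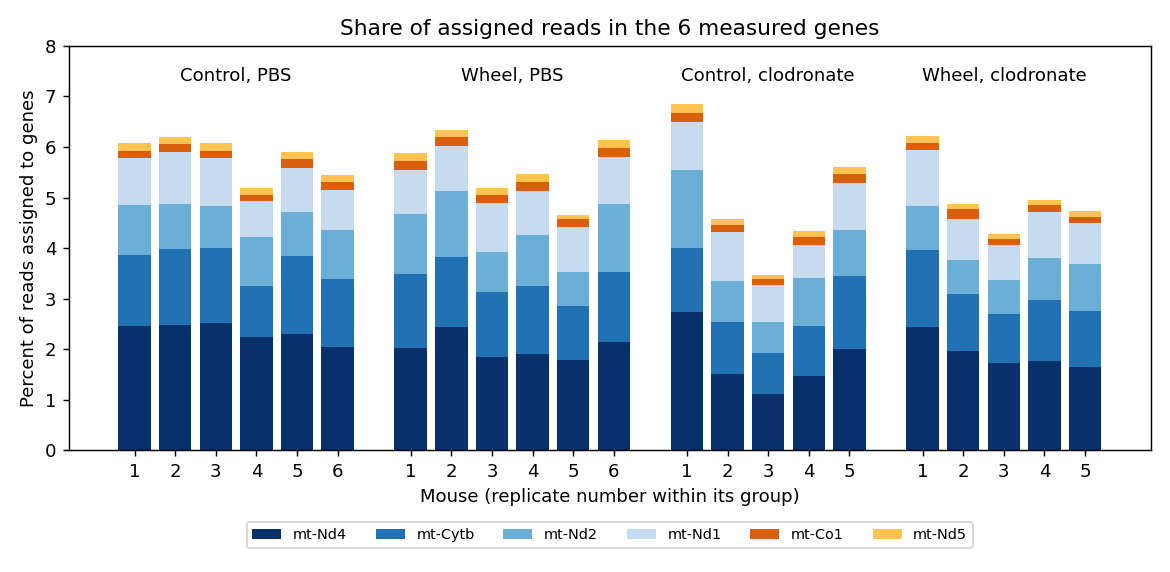
Percent of the reads assigned to genes that fell in each of the 6 measured genes (stacked bars), with 1 bar for each mouse and mice ordered by replicate number within the 4 groups. Totals lie between 3.47% and 6.85%, and mt-Nd4 forms the largest part in every mouse.

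Groups were compared with limma on log2(CPM + 1) over the 15138 genes that exceeded the floor in 5 mice or more, and single genes also by a two-sided exact permutation test. In limma the spread of each gene is drawn toward that of genes at a similar level. Its SE and interval are thus not those of the compared mice alone, whereas the permutation uses just those mice. The first question was whether wheel running moved these genes when phagocytes were left in place (PBS liposomes). None of the 6 measured genes passed an adjusted p of 0.05 in limma, where 0% of all genes did (0 of 15138, with 744 or 4.91% at an unadjusted p under 0.05). mt-Nd4 was the gene with the largest difference. Its level in control mice was 12869 CPM at the lowest, 14589 CPM at the median and 16271 CPM at the highest, and in wheel mice 10735, 11913 and 14969 CPM. The wheel mice lay lower on the whole, but the groups overlapped. The difference was -0.24 on the log2 scale (limma SE 0.35, 95% interval -0.96 to 0.48, unadjusted p = 0.494, adjusted p = 0.991). Exact permutation gave p = 0.0346 for mt-Nd4 before adjustment and 0.277 after Benjamini-Hochberg adjustment over 24 such tests.

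mt-Co1 went the other way. In control mice it was 752 CPM at the lowest, 936 CPM at the median and 1085 CPM at the highest, and in wheel mice 938, 1121 and 1189 CPM. All 6 wheel mice were above the control median, but the groups overlapped. The difference of 0.22 (limma SE 0.15, interval -0.09 to 0.52) had an adjusted p of 0.987, and the exact permutation p was 0.0346, or 0.277 adjusted over 24 tests. mt-Nd1 differed by 0.01, mt-Nd2 by 0.12, mt-Nd5 by -0.10 and mt-Cytb by -0.09, with exact permutation p of 0.463 to 0.890. As parts of the 6 genes, mt-Nd4 fell between 37.5% and 43.1% in control mice and between 34.4% and 38.6% in wheel mice, and mt-Co1 between 2.33% and 2.98% against 2.93% and 3.50%.

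With clodronate liposomes, the same comparison of wheel and control mice again had 0 of the 6 genes past the threshold in limma, where 0.00661% of all genes (1 of 15138) passed and 10.4% had an unadjusted p under 0.05. mt-Nd4 was 16619, 9490, 6506, 9113 and 11944 CPM in the 5 control mice and 14030, 11495, 10010, 10188 and 9413 CPM in the 5 wheel mice. The control mice spread more widely and enclosed all the wheel mice. The difference in mt-Nd4 was 0.09 (limma SE 0.38, interval -0.69 to 0.88). mt-Nd2 differed by -0.28, mt-Nd5 by -0.23, mt-Co1 by -0.15, mt-Nd1 by -0.05 and mt-Cytb by 0.03, with exact permutation p of 0.294 to 0.865. The lymphocyte markers, which were high in 3 of these 5 wheel mice, moved with the groups (12 of 12 higher, all with an unadjusted limma p under 0.05), so the comparison was repeated in limma without the 5 mice with high lymphocyte markers and with the lymphocyte score as covariate. Without the mice mt-Nd1 turned to 0.11 and mt-Co1 to 0.07. With the covariate mt-Nd4 was 0.25, mt-Nd2 -0.17, mt-Cytb 0.12, mt-Nd5 -0.08, mt-Nd1 -0.03 and mt-Co1 near 0, and no gene of the 15138 was called.

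**Figure D3:**
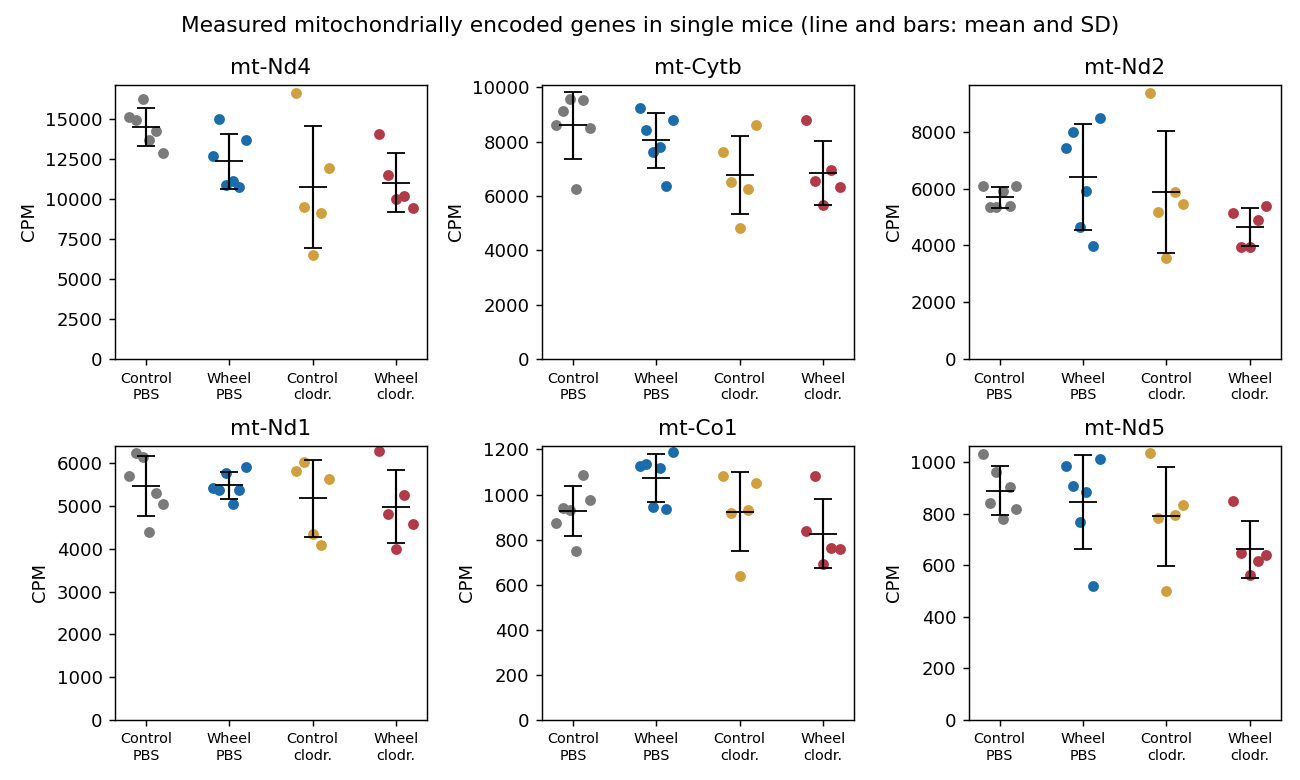
CPM of the 6 measured genes in each mouse (points) with the mean and SD of each group (black), on axes that start at 0. The groups overlap in every panel, and the control mice with clodronate liposomes have the widest spread in mt-Nd4, from 6506 to 16619 CPM.

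The other question was whether clodronate moved these genes. In control mice all 6 had a lower mean log2(CPM + 1) with clodronate than with PBS liposomes, against 65.4% of all genes (on the CPM scale the mean of mt-Nd2 was higher, 5887 against 5703), and the median difference was -0.15 for the 6 genes and -0.10 for all genes. None passed an adjusted p of 0.05 in limma, where 0% of all genes did (0 of 15138, with 1058 or 6.99% at an unadjusted p under 0.05). mt-Nd4 differed by -0.50 (limma SE 0.36, interval -1.25 to 0.25, adjusted p = 0.821, exact permutation p = 0.0519) and mt-Cytb by -0.36 (SE 0.29, interval -0.95 to 0.23, exact permutation p = 0.0606). mt-Cytb was 7629, 6496, 4830, 6239 and 8626 CPM in the 5 clodronate mice and 6245, 8865 and 9568 CPM at the lowest, median and highest of the PBS mice. Of the PBS mice, replicate 4 lay below the clodronate median. mt-Nd5 differed by -0.20. mt-Nd1 (-0.09), mt-Nd2 (-0.02) and mt-Co1 (-0.02) were near 0, and each of these 3 turned above 0 under at least 1 other scaling, while mt-Nd4, mt-Nd5 and mt-Cytb stayed below 0 under all 16 other settings. In those settings the unadjusted limma p of mt-Nd4 and mt-Cytb went down to 0.0135 and 0.0429, from 0.181 and 0.222. Their lowest adjusted limma p was 0.510 and 0.579.

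In wheel mice all 6 again had a lower mean log2(CPM + 1) with clodronate, against 49.9% of all genes, and the median difference was -0.29 for the 6 genes and 0.00 for all genes. CPM counts unassigned reads too, and scaled to assigned reads the median of all genes was 0.05. No member passed an adjusted p of 0.05 in limma, where 0.00661% of all genes did. mt-Co1 had the lowest limma and exact permutation p of the 6 genes, though not the largest difference. It was 840, 1081, 690, 762 and 758 CPM in the 5 clodronate mice, against 938 CPM at the lowest, 1121 CPM at the median and 1189 CPM at the highest with PBS. Only replicate 2 of the clodronate mice lay inside the PBS range. The difference was -0.39 (limma SE 0.16, interval -0.71 to -0.07), or a fold of 0.762, with an unadjusted limma p of 0.0192, an adjusted p of 0.326 and an exact permutation p of 0.0173, which became 0.277 over 24 tests. At that unadjusted level 11.6% of all genes had a p under 0.05. The difference in mt-Co1 stayed below 0 in every setting run, between -0.49 and -0.20, and was closest to 0 without the 5 mice with high lymphocyte markers. mt-Nd2 differed by -0.42 and mt-Nd5 by -0.33, with exact permutation p of 0.0952 and 0.108. Lymphocyte markers (12 of 12 higher) and adipocyte markers (9 of 9 lower, median -0.45) moved in the same comparison. Without the 5 mice with high lymphocyte markers 4 of the 6 genes were lower and their median was -0.13, with mt-Nd1 at 0.02 and mt-Nd4 at 0.02, against a median of -0.08 for all genes. With the adipocyte score as covariate 5 of the 6 were lower and their median was -0.10, with mt-Nd4 at 0.05, mt-Co1 at -0.22 and mt-Nd2 at -0.15. These comparisons share mice with those of wheel running, so they are not separate evidence.

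The change with the wheel was also compared between the liposome groups by the interaction term in limma. None of the 6 genes passed an adjusted p of 0.05, where 0% of all genes did (0 of 15138, with 1147 or 7.58% at an unadjusted p under 0.05). The largest terms were -0.39 for mt-Nd2 (SE 0.41) and -0.37 for mt-Co1 (SE 0.22, interval -0.83 to 0.08). The term for mt-Nd4 was 0.34, and its interval was the widest, from -0.73 to 1.40.

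**Figure D4:**
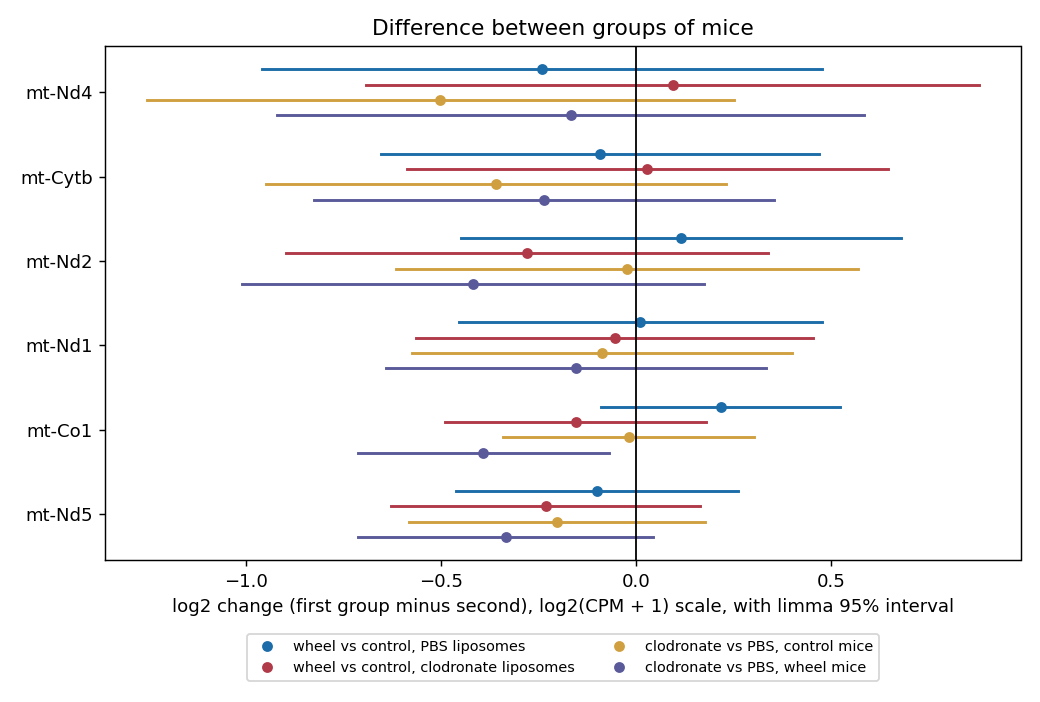
Difference in log2(CPM + 1) between groups for the 6 measured genes (points) with limma 95% intervals (lines), coloured by comparison, the first group named minus the second. All intervals include 0 except that of mt-Co1 for clodronate against PBS in wheel mice, -0.71 to -0.07, whose adjusted limma p was 0.326. The intervals draw on the spread of other genes and not just on that of the compared mice.

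The nuclear genome encodes the remaining subunits of the chain, which must be matched to the mitochondrial ones in each complex. No gene of the lists for complexes I to V passed an adjusted p of 0.05 in limma in any comparison. In clodronate against PBS control mice, 33 of 36 nuclear subunits of complex I were lower (10 with an unadjusted p under 0.05), with a median of -0.23, and in wheel mice 33 of 36 (13 with an unadjusted p under 0.05), with a median of -0.27. The medians for complex IV were -0.35 and -0.29 over 14 genes, for complex III -0.29 and -0.28 over 9 genes, for complex II -0.23 and -0.33 over 4 genes and for complex V -0.23 and -0.20 over 15 genes. Of all genes, 65.4% and 49.9% were lower, 6.08% and 5.54% at an unadjusted limma p under 0.05, and the medians were -0.10 and 0.00. The genes with the lowest p in wheel mice were Ndufb11 (-0.43) of complex I, Cox6a1 (-0.53) of complex IV and Atp5b (-0.39), the catalytic subunit of the ATP synthase, each with an adjusted limma p of 0.207 to 0.208. In control mice they included Ndufb3 (-0.57), Uqcrc2 of complex III (-0.46) and Cox8a (-0.54), with adjusted limma p of 0.412 to 0.438. Adipocyte markers were lower with clodronate too, 8 of 9 in control mice (median -0.27) and 9 of 9 in wheel mice. With the adipocyte score as covariate the complex I medians were -0.24 and -0.22 and those of complex IV -0.36 and -0.28. Without the 5 mice with high lymphocyte markers, the complex I genes lower in wheel mice were 26 of 36, with a median of -0.15, against 58.9% of all genes, with a median of -0.08. Lower values were not particular to clodronate. For the wheel with PBS and with clodronate liposomes, 28 and 28 of 36 complex I genes were lower (medians -0.13 and -0.10). So were 1 and 3 of 4 in complex II, 7 and 4 of 9 in III, 10 and 12 of 14 in IV and 14 and 11 of 15 in V. Of all genes 63.8% and 49.3% were lower.

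Genes that copy or process the mitochondrial genome were also listed. Among the 22 genes of mitochondrial DNA replication, transcription and RNA handling, 16 (72.7%) were lower in control mice with clodronate and 13 (59.1%) in wheel mice, against 65.4% and 49.9% of all genes. Polg, the mitochondrial DNA polymerase, had a difference of -0.86 for the wheel with PBS liposomes (limma, adjusted p = 0.961) and of 0.95 for clodronate in wheel mice (limma, adjusted p = 0.173). The 5 regulators of mitochondrial biogenesis had medians of 0.30, 0.00, 0.00 and 0.07 for the wheel with PBS, the wheel with clodronate, clodronate in control mice and clodronate in wheel mice. In the same order, 11, 8, 10 and 8 of the 12 genes listed for mitochondrial content were lower, with medians of -0.22, -0.06, -0.32 and -0.13. Of all genes 63.8%, 49.3%, 65.4% and 49.9% were lower. Cs, the citrate synthase often used as a measure of mitochondrial content, was lower by -0.54 and -0.36 with clodronate in control and wheel mice (limma, adjusted p = 0.438 and 0.385). None of these lists had a gene past the threshold in any of the 5 comparisons.

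Of the other mitochondrially encoded genes, mt-Rnr1 and mt-Rnr2, the ribosomal RNAs, were measured at medians of 8362 and 21001 CPM. mt-Nd6, the only protein gene on the opposite strand, was at 6.70 CPM, and mt-Nd3 at 10.5 CPM, with 98.8% of its 3′ windows shared with a copy. In wheel mice mt-Nd6 was 3.44 to 6.77 CPM with clodronate and 6.21 to 15.8 CPM with PBS, a difference of -0.89 (limma SE 0.31, adjusted p = 0.273). The CPM of the 6 genes per CPM of the 2 ribosomal RNAs was 1.24 ± 0.19 (SD, n = 6) and 0.99 ± 0.12 (SD, n = 6) in control and wheel mice with PBS liposomes, and 1.04 ± 0.18 (SD, n = 5) and 1.15 ± 0.12 (SD, n = 5) with clodronate. The 4 ranges overlapped, but with PBS liposomes just through replicate 5 of the wheel mice (1.21). The other wheel mice with PBS were at 0.878 to 0.981, and the control mice with PBS at 1.05 to 1.55. This difference was not tested.

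Within groups, the measured genes varied together from mouse to mouse. With group means removed, all 15 pairs of the 6 genes had a positive Pearson r over 22 mice, from 0.26 to 0.82 with a median of 0.68. Permuting mice within groups 100000 times gave an adjusted p under 0.05 for 13 of the 15 pairs, adjusted over 28 relations that include the ribosomal RNAs. The closest pair was mt-Nd2 and mt-Nd5, with r = 0.82 (permutation p = 0.00017) and Spearman rho = 0.71 (p = 0.00088), and r = 0.78 without the 2 mice farthest from the median. The least related were mt-Nd1 and mt-Nd2, which are neighbouring protein genes on the chromosome, with r = 0.26 (permutation p = 0.309) and rho = 0.19 (p = 0.41). CPM values of 1 library share a total, and scaling to assigned reads outside the mitochondrial genes gave r from 0.32 to 0.84.

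mt-Nd2 stood closer to the ribosomal RNAs than to most of the other genes. Its r with mt-Rnr1 was 0.86 and rho 0.87, each with a permutation p of 1e-05, the smallest these permutations can give, and r was 0.83 without the 2 farthest mice. For mt-Nd1 the r with mt-Rnr1 was 0.11 (permutation p = 0.681, rho = 0.05, p = 0.836, r = 0.17 without the 2 farthest mice). The difference between these r values was not tested. mt-Rnr1 and mt-Rnr2, which are transcribed from 1 precursor, had r = 0.92.

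mt-Co1 was also set against 10 lists of cell type markers, scored as the mean log2(CPM + 1) of each list with group means removed. It was taken to stand for the 6 genes just because the list of members names it first. Of its windows near the 3′ end 100% are shared with a copy, so mt-Co1 may lack reads. It rose with adipocyte markers, with r = 0.60 (permutation p = 0.00562, adjusted 0.0383) and rho = 0.62 (p = 0.00566, adjusted 0.0361), and r = 0.73 without the 2 farthest mice. It fell with proliferation markers, with r = -0.58 (permutation p = 0.00767, adjusted 0.0383) and rho = -0.60 (p = 0.00723, adjusted 0.0361), and r = -0.58 without the 2 farthest mice. The sign was the same within each of the 4 groups for both. Scaled to assigned reads outside the mitochondrial genes, the r values were 0.60 and -0.51 and the adjusted permutation p 0.0633 for both. Without the 5 mice with high lymphocyte markers they were 0.57 and -0.50 with an adjusted p of 0.226. Leaving out single mice, r stayed between 0.53 and 0.69 for the adipocyte markers and between -0.66 and -0.53 for the proliferation markers. The adjusted permutation p of both rose above 0.05, to 0.0502 to 0.0813, without replicate 1 of the PBS control mice, replicates 5 and 6 of the PBS wheel mice, replicates 1 and 3 of the clodronate control mice or replicates 2 and 3 of the clodronate wheel mice. That of the adipocyte markers alone did so without replicate 5 of the clodronate control mice (0.0523), and that of the proliferation markers alone without replicate 5 of the PBS control mice (0.0924). For the other 5 measured genes, r with the adipocyte markers ran from 0.20 to 0.67 and with the proliferation markers from -0.48 to -0.17.

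No relation of mt-Co1 with skeletal muscle or brown fat markers passed the test. Its r was 0.10 with skeletal muscle markers (permutation p = 0.733, rho = -0.02, p = 0.926, r = -0.21 without the 2 farthest mice), and -0.34 with brown fat markers (permutation p = 0.154, rho = -0.33, p = 0.154, r = -0.40). The mice with the highest muscle scores, replicate 2 of each clodronate group, had 920 CPM of mt-Co1 in the control mouse and 1081 CPM in the wheel mouse. Red blood cell markers had r = 0.51 with mt-Co1 (permutation p = 0.0358, adjusted 0.0895, rho = 0.56, p = 0.0168, r = 0.46 without the 2 farthest mice). For the other 5 measured genes r ran from -0.54 to 0.11 with skeletal muscle and -0.20 to 0.31 with brown fat markers. With red blood cell markers it ran from 0.53 to 0.79. Neutrophil markers had r = -0.59 with mt-Co1 (permutation p = 0.0216, adjusted 0.0721, rho = -0.48, p = 0.0431, r = -0.25 without the 2 farthest mice). Just 3 of the 6 neutrophil markers exceeded the floor in 5 mice or more.

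**Figure D5:**
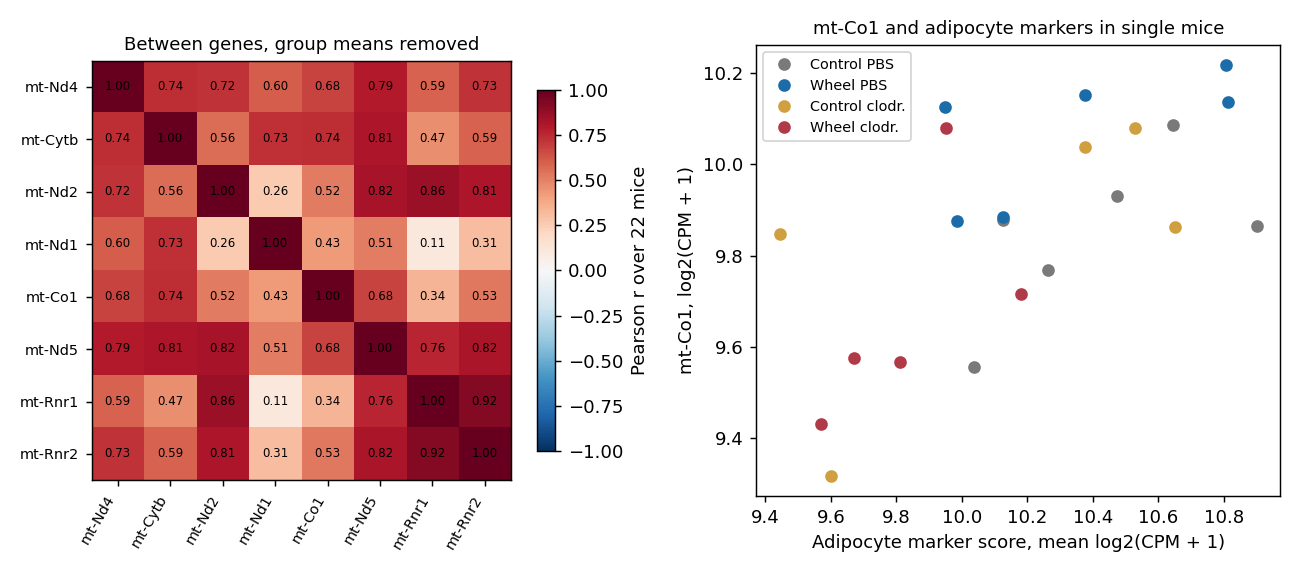
Left, Pearson r between the 6 measured genes and both ribosomal RNAs over 22 mice with group means removed, coloured from -1 to 1, lowest between mt-Nd1 and mt-Rnr1 (0.11) and highest between mt-Rnr1 and mt-Rnr2 (0.92). Right, log2(CPM + 1) of mt-Co1 against the mean log2(CPM + 1) of 9 adipocyte markers in each mouse, coloured by group, without removal of group means.

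The pattern of the 6 genes over mice was compared with that of 7647 genes with a mean of at least 10 CPM, by r with the mean log2(CPM + 1) of the 6, group means removed, as a description. The genes most like them outside the mitochondrial genome were the alpha globins Hba-a1 and Hba-a2 (r = 0.85 for both), Uck1 (0.83), Gpx4-ps2 (0.82) and Aldh1l1 (0.81). The least like them were Ddit4, a stress-induced inhibitor of mTOR signalling, and Mapk8, the kinase JNK1 (r = -0.85 for both), Maml1 (-0.80), Slc16a6 (-0.80) and Rnf149 (-0.79). All 5 red blood cell markers had a positive r, with a median of 0.81, and all 9 adipocyte markers, with a median of 0.60. The summed level of the red blood cell markers ran from 1138 to 5752 CPM, and the 4 groups overlapped in it. The nuclear subunits of complexes I to V had median r of 0.43, 0.44, 0.47, 0.41 and 0.37, with 33 of 35, 4 of 4, 9 of 9, 10 of 14 and 12 of 13 positive. The lists for mitochondrial DNA expression (median 0.04 over 10 genes) and mitochondrial content (0.02 over 12 genes) were near the median of all genes, -0.02, and the 10 skeletal muscle markers were all negative, with a median of -0.23. The part of blood or fat in the spread of the 6 genes over mice was not tested.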

How the data were processed

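RNA of 22 mice was measured with QuantSeq 3′ FWD. Per the submitters' processing notes, STAR 2.5.3a and GRCm38 were used, while the annotation is not given in the sources used here. The authors deposited a signal per gene, read counts scaled to the same library total (CPM), unmapped and multimapping reads included, with values below 1 set to 1. Values above 1 were whole multiples of 1 read, which gives the depth (median 16293026 reads), but the floor hides low counts, so no count test was run and precision at low levels is limited.

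The 4 rows that name no gene were left out of the tests. A further 106 symbols had several rows, of which that with the highest mean was kept. Groups and replicate numbers came from the labels, each sample being a separate mouse. Genes that exceeded the floor in 5 mice or more were fitted as log2(CPM + 1) with limma 3.58.1 in R 4.3.3 (4 group means, variance trend, Benjamini-Hochberg). The step was first tested on simulated libraries with known changes. Single genes were compared by exact permutation and relations by permutation within groups (scipy 1.17.1, numpy 2.4.6, Python 3.11.15). Sequences were compared with GENCODE M21 transcripts (BLAST 2.17.0). Copies outside annotated transcripts were not looked for.

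The members and lists were chosen with earlier results of these data known. The genes named are the 9 members, other mitochondrially encoded genes, genes of the nuclear lists with the lowest p, and the 5 genes most and 5 least like the members. Alternatives were other pseudocounts, filters, scalings, covariates, a replicate block and leaving out mice. Scaling outside Gm42418, leaving out the 5 mice with high lymphocyte markers in the fits, and the gene lists under marker scores were added after seeing the data. No pair of libraries was identical (50 pairs within groups).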

Additional observations from a re-analysis of the deposited data

Results flagged for a closer look

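A gap at the end of a group that was large for the group's range marked 5 of 52 groups over 13 measures, where chance gives about 2.6. In the PBS control mice, replicate 4 was lowest in mt-Cytb, with a log2(CPM + 1) of 12.6 against 13.05 for the nearest mouse. In the PBS wheel mice, replicate 5 was lowest in mt-Rnr1 (12.5 against 13.21) and mt-Rnr2 (14.1 against 14.60), and highest in the CPM of the 6 measured genes per CPM of both ribosomal RNAs (1.21 against 0.981). In the clodronate wheel mice, replicate 5 was highest in mt-Nd6 (2.96 against 2.38).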

How the results depend on the processing

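None of the 6 measured genes passed an adjusted limma p of 0.05 in any comparison under any of 474 results from other settings (lowest adjusted p 0.281, 28 with a turned sign) or 396 that left out 1 mouse (lowest 0.129, 15 turned). For the wheel with PBS liposomes, mt-Nd2 turned to -0.015 with the skeletal muscle score as covariate and mt-Cytb to 0.0070 with upper-quartile scaling, and over left-out mice mt-Nd1 ranged from -0.049 to 0.052 and mt-Nd5 from -0.16 to 0.035. For the wheel with clodronate, mt-Nd1 became 0.019 scaled to assigned reads, 0.011 outside the mitochondrial genes, 0.0094 outside Gm42418 and 0.11 without the 5 mice with high lymphocyte markers, and mt-Co1 0.069 without them. Over left-out mice mt-Cytb ranged from -0.085 to 0.12, mt-Nd1 from -0.14 to 0.022 and mt-Nd4 from -0.069 to 0.27.

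For clodronate in control mice, mt-Nd1 became 0.030 with upper-quartile scaling and 0.0032 outside Gm42418. mt-Nd2 became 0.0053 scaled to assigned reads, 0.094 with upper-quartile scaling, 0.060 and 0.13 with the skeletal muscle and adipocyte scores, 0.067 outside Gm42418 and 0.062 also outside the mitochondrial genes. mt-Co1 became 0.0096, 0.099, 0.079 (adipocyte score), 0.072 and 0.066 in the matching settings. Over left-out mice mt-Nd2 ranged from -0.21 to 0.14 and mt-Co1 from -0.081 to 0.11. For clodronate in wheel mice, mt-Nd1 became 0.023 and mt-Nd4 0.017 without the 5 mice, and mt-Nd4 0.051 with the adipocyte score. For the interaction, without the 5 mice mt-Nd1 became 0.070 and mt-Nd5 0.040, mt-Nd5 was 0.011 with the lymphocyte score, and mt-Nd1 ranged from -0.15 to 0.010 over left-out mice. For all of these the cause was not tested.

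The replicate numbers did not pair the mice (mean r of same-numbered mice -0.075, 0.18, 0.096 and 0.13, not every pair above 0.1). With the replicate block, the genes called for the wheel with clodronate and for clodronate in wheel mice went from 1 to 0, and in clodronate against PBS control mice mt-Nd2 was 0.033 and mt-Co1 0.0049.

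The count of all genes called for the wheel with clodronate (1) was 3 with no filter, 12 without the 5 mice, 0 when the mean had to reach 5 CPM, with the groups compared alone and with each score as covariate, and 0 to 236 over left-out mice. For clodronate in wheel mice (1) it was 3 with a pseudocount of 5, 4 with no filter, 2 scaled to assigned reads, 3 outside the mitochondrial genes, 3 with upper-quartile scaling, 2 without a variance trend, 2 for both scalings outside Gm42418, 14 without the 5 mice, 0 when the mean had to reach 5 CPM, with the groups compared alone or with the lymphocyte or adipocyte score, and 0 to 51 over left-out mice. For clodronate in control mice (0) it was 0 to 38 over left-out mice, and for the interaction (0) it was 2 with no filter.

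The marker lists related to mt-Co1 (2 of 10) were 0 of 10 scaled outside the mitochondrial genes or without the 5 mice, and 0 to 4 over left-out mice. Its r with skeletal muscle became -0.0040 with that scaling and ranged from -0.16 to 0.25 over left-out mice, and with mammary epithelium it was -0.082 without the 5 mice. The mean share of the 6 genes, in the order PBS control, PBS wheel, clodronate control and clodronate wheel, was 3.61%, 3.42%, 3.03% and 2.90% of all reads. Set against the assigned reads outside the 10 genes with the highest mean, the 6 genes came to 7.74%, 7.78%, 6.92% and 6.85%. That is a ratio and not a share, since those 10 genes include mt-Nd4, mt-Cytb, mt-Nd2 and mt-Nd1.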
